A study of Mus musculus with 3 samples.

Results

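The dual-specificity MAP kinase phosphatases were examined in chromatin-bound RNA of mouse bone marrow-derived macrophages. The 9 members, Dusp1, Dusp2, Dusp4, Dusp5, Dusp6, Dusp7, Dusp8, Dusp10 and Dusp16, were taken by gene symbol from 55536 annotated genes, without a cut on measured values. Earlier results of these data were known when the list was made, so it was not a blind choice. All 3 libraries form 1 group: primary macrophages from the C57BL/6J strain that had received 100 ng/ml Lipid A for 25 min. Lipid A, the membrane anchor of lipopolysaccharide, triggers the receptor TLR4. The RNA came from the chromatin fraction, where nascent transcripts are enriched, and was depleted of ribosomal RNA before sequencing. The labels give 1 donor identifier for all 3 libraries and do not say that the replicates came from separate animals, so any p-value measures only the spread between these samples. The sex and age of the animals were not collected. No unstimulated library is analysed here, so the values are levels in stimulated cells and do not show induction.

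Typical MAP kinases are switched on when a kinase adds phosphates to a threonine and a tyrosine in their activation loop. The phosphatases of this family remove both phosphates and so end the signal. Their genes are known as feedback genes: several are transcribed in response to the kinases that their proteins switch off. By location and target the family is grouped into inducible nuclear enzymes (Dusp1, Dusp2, Dusp4, Dusp5), cytoplasmic enzymes specific for the ERK kinases (Dusp6, Dusp7) and enzymes that act mainly on the stress kinases JNK and p38 (Dusp8, Dusp10, Dusp16). In macrophages Dusp1 is known as a brake on cytokine production after TLR4 stimulation.

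The libraries held 13525994, 19230763 and 19207049 expected counts in replicates 1, 2 and 3, and the labels give 1000, 250 and 500 ng of RNA for them. Genes of a ribosomal DNA locus (Gm26917, Gm42418 and CT010467.1) took 8.46%, 27.1% and 23.1% of the counts, so replicate 1 stood apart from the other two in composition. All 8 macrophage markers reached 10 TPM (counts divided by gene length and scaled to a fixed sum per library), with a sum of 2175 to 3557 TPM over the libraries. The summed markers of neutrophils (2.21 to 3.52 TPM), of T and NK cells (0 to 0.423 TPM) and of B cells (0.0415 to 0.379 TPM) were far lower, with Ly6g and Cd3e at 0 counts in the RSEM-type table. Those of dendritic cells (2.25 to 3.55 TPM), of stromal and endothelial cells (4.19 to 9.43 TPM) and of erythroid cells (9.58 to 18.2 TPM, nearly all Alas2) were low too. The kallisto-type table gave higher sums for T and NK cells (14.1 to 20.6 TPM, mostly Thy1) and B cells (3.90 to 10.3 TPM), against 1918 to 3002 TPM for macrophages. In bulk RNA, fewer cells that express a gene and less RNA per cell cannot be told apart.

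The sequences that matter most for the results are those of introns that annotated transcripts keep. In mm10 with GENCODE M21, only Dusp1, Dusp2 and Dusp16 have transcripts annotated as retained introns, and the 2 highest members, Dusp1 and Dusp2, each have 3 introns in their main coding transcript. Transcript Dusp1-203 keeps intron 2 (369 nt, 16.0% of that transcript), Dusp1-204 keeps intron 3 (334 nt, 39.8%) and Dusp2-202 keeps intron 2 (350 nt, 46.3%). The windows below show 15 exonic and 15 intronic bases at each end of these introns, 5′ to 3′ on the gene's strand, and capitals mark the first and last 2 bases of the intron. They were read from the GENCODE transcripts that contain them.
Dusp1 intron 2, start, chr17:26507559-26507588, minus strand: cctctctacgatcagGTtagtaggagtccg
Dusp1 intron 2, end, chr17:26507190-26507219, minus strand: tttttttgacttcAGgggggcccagtggag
Dusp1 intron 3, start, chr17:26506970-26506999, minus strand: ctattgacttcatagGTaaatggaataact
Dusp1 intron 3, end, chr17:26506636-26506665, minus strand: aactttattttccAGactccatcaaggatg
Dusp2 intron 2, start, chr2:127336884-127336913, plus strand: ccgatctatgaccagGTgagttgatattcg
Dusp2 intron 2, end, chr2:127337234-127337263, plus strand: cccttcctcctccAGggtggtcctgtggaa
All 3 introns begin with GT and end with AG, the usual letters of spliced introns. The introns of Dusp1 and Dusp2 are short: the longest of the coding transcript was 369 nt in Dusp1 and 350 nt in Dusp2, against 1010 nt in Dusp6, 8273 nt in Dusp4, 4129 nt in Dusp5, 31199 nt in Dusp10 and 29803 nt in Dusp16.

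**Figure D1:**
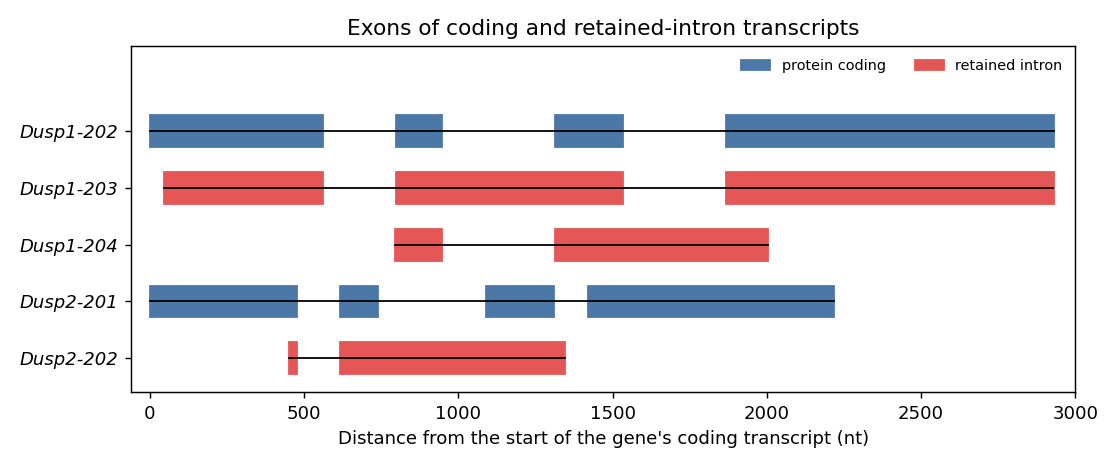
Exons (boxes) and introns (lines) of the main coding transcripts of Dusp1 and Dusp2 and of their retained-intron transcripts, by distance in nt from the start of the coding transcript. Dusp1-203 fills intron 2 and Dusp1-204 fills intron 3 of Dusp1-202, and Dusp2-202 fills intron 2 of Dusp2-201.

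The inducible nuclear phosphatases made up almost all of the family's TPM. Intron bases entered these levels only where an annotated transcript includes them. Retained-intron transcripts keep 2 introns of the main coding transcript of Dusp1, 1 of Dusp2 and 0 of each other member. The effect of this on the shares and on the order of the members was not tested. The summed level of the 9 members was 1663, 1083 and 1270 TPM in replicates 1, 2 and 3, and the 4 nuclear members took 98.3%, 98.3% and 98.7% of it. The JNK and p38 phosphatases took 1.31%, 1.02% and 0.973%, and the cytoplasmic ERK phosphatases 0.346%, 0.675% and 0.323%. Dusp1 alone held 55.7% ± 5.79 (SD, n = 3) and Dusp2 37.7% ± 6.75 of the family's TPM. The share of Dusp1 was highest in replicate 2 (62.4%), where that of Dusp2 was lowest (29.9%).

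Of the 9 members, 8 had a mean of at least 1 TPM, against 32.9% of 46615 genes of at least 300 nt. That background holds genes of all types, many without any count, while the members are protein-coding, so it is not a like-for-like comparison. A mean of at least 10 TPM was reached by 5 members, against 17.6% of genes, and at least 100 TPM by 2 members, against 2.95%. The members' median was 10.04 TPM, and that of the 23783 genes with any count was 3.32 TPM.

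**Figure D2:**
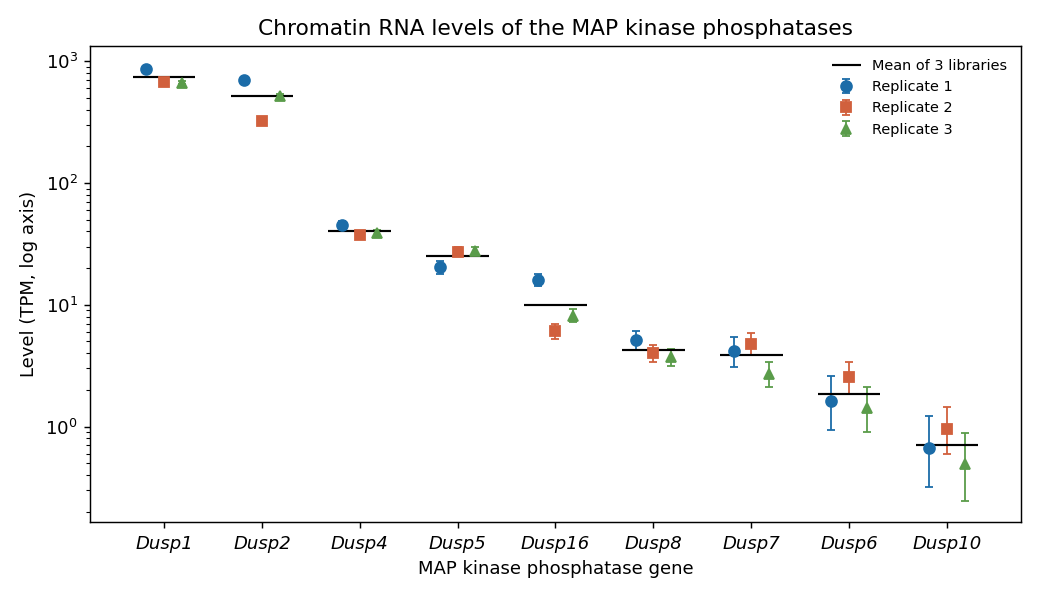
Level of each member in TPM on a log axis for the 3 libraries, with exact 95% Poisson intervals of the counts (counting error only) and the mean as a black line. Dusp1 and Dusp2 stand above 300 TPM in each library and Dusp10 stays below 1 TPM.

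Among the nuclear members, Dusp1 (ENSMUSG00000024190.7, chromosome 17, 26505590 to 26562128, minus strand), which acts on p38, JNK and ERK, was highest. It stood at 867, 676 and 669 TPM in replicates 1, 2 and 3, from 7137, 8353 and 8290 counts. These levels placed it above 99.8% of the genes of at least 300 nt. The annotated span is 56.5 kb because transcript Dusp1-205 starts far upstream, but that transcript had 0 RSEM-type counts, and those with counts lie between 26505590 and 26508519. Ergic1 overlaps the distant end of the span on the opposite strand.

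Dusp2 (ENSMUSG00000027368.6, chromosome 2, 127336159 to 127338376, plus strand), a phosphatase known from blood cells, followed at 703, 324 and 518 TPM. Its values spread 2.17-fold between the lowest and the highest library, against 1.30-fold for Dusp1. Dusp1 was higher than Dusp2 in all 3 libraries, by 1.23-, 2.09- and 1.29-fold, but the ranges of the 2 genes over the libraries overlapped. An exact two-sided permutation test of 3 values against 3 others cannot go below p = 0.1. Such a test also ignores that both genes were measured in the same libraries. Levels of members were compared by their ranges, which do not use this pairing either, and were not tested.

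Dusp4 (chromosome 8, 34807297 to 34819894), which acts on ERK and JNK, lay a step lower at 45.4, 37.4 and 38.7 TPM. Its mean of 40.5 ± 4.28 TPM (SD, n = 3) was 12.7-fold below that of Dusp2, the widest gap between neighbours in the order. Dusp5 (chromosome 19, 53529109 to 53542431), the nuclear phosphatase specific for ERK, had 20.3, 27.3 and 27.4 TPM. Replicate 1 was the highest library for Dusp1, Dusp2 and Dusp4 and the lowest for Dusp5, and Dusp4 and Dusp5 did not overlap. An antisense gene, AC137853.2, overlaps the start of Dusp5 with 1.07, 4.38 and 2.84 counts.

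The phosphatases of JNK and p38 held a wide range of low levels. Dusp16 (chromosome 6, 134715468 to 134792625) was at 15.9, 6.07 and 8.14 TPM, highest in replicate 1 like Dusp2, and its SD was 51.7% of its mean, the largest relative spread of the 9 members. Dusp8 (chromosome 7, 142079490 to 142095843) had 5.13, 4.0 and 3.72 TPM. Dusp10 (chromosome 1, 184013302 to 184075636) was the lowest member at 0.667, 0.951 and 0.494 TPM, from 10, 22 and 11 counts. The exact 95% Poisson intervals of these counts were 0.320 to 1.23, 0.596 to 1.44 and 0.247 to 0.884 TPM, so a difference between libraries was not detectable for Dusp10 at this depth. Gm36328, an antisense gene within Dusp16, had 10, 5 and 7 counts. How the counting used strand is not stated, so reads of such partners cannot be told apart.

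In the RSEM-type table the cytoplasmic ERK phosphatases were low in every library. Dusp7 (chromosome 9, 106368632 to 106375724) had 4.14, 4.77 and 2.69 TPM from 53, 94 and 69 counts. Dusp6 (chromosome 10, 99263231 to 99267489), a feedback gene of ERK signalling in many tissues, had 1.62, 2.54 and 1.41 TPM from 17, 45 and 23 counts. Both were highest in replicate 2. Dusp9, the remaining MAP kinase phosphatase gene and the third cytoplasmic one, had 1 RSEM-type count in replicate 2 and 0 in the other libraries.

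Ordered by mean level the members ran Dusp1, Dusp2, Dusp4, Dusp5, Dusp16, Dusp8, Dusp7, Dusp6 and Dusp10. Of the 8 pairs of neighbours, 6 did not overlap over the libraries. The pairs that overlapped were Dusp1 with Dusp2 and Dusp8 with Dusp7, the latter differing by 0.17 ± 0.38 log2 units (SD, n = 3) and turning over in replicate 2. Dusp6 and Dusp10 differed by 1.40 ± 0.12 log2 units. In replicate 1, however, the counting intervals of those 2 genes overlapped (0.941 to 2.59 and 0.320 to 1.23 TPM). The order was the same from counts without gene length and without each replicate in turn. In the second transcript table, whose columns are those kallisto writes, 6 of 9 members kept their place and Dusp7 moved above Dusp16 and Dusp8.

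Counts of Dusp1 fell almost entirely on transcripts annotated as keeping an intron. In chromatin RNA, transcripts not yet spliced also give reads in introns. For Dusp1, Dusp2 and Dusp16 alike, a kept intron and splicing still to come cannot be told apart from these counts. Dusp1-203, with intron 2, held 5511, 6313 and 6270 counts (77.2%, 75.6% and 75.6% of the gene's counts). Dusp1-204, with intron 3, held 1474, 1799 and 1509 counts (20.6%, 21.5% and 18.2%). The main coding transcript Dusp1-202, which lacks all 3 introns, held 152, 241 and 511 counts (2.13%, 2.89% and 6.17%). The coding share was highest in replicate 3 and lowest in replicate 1, and the retained-intron share was 97.9%, 97.1% and 93.8%. The exact 95% binomial intervals of these shares (97.5% to 98.2%, 96.7% to 97.5% and 93.3% to 94.3%) cover counting error only, and that of replicate 3 lay below the others. The kallisto-type table gave 91.1%, 94.6% and 91.8%, with replicate 2 highest, so the order of the libraries depended on the table.

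Dusp2 divided its counts more evenly. Its coding transcript Dusp2-201 held 1947, 1410 and 2528 counts and Dusp2-202, which keeps intron 2, held 1484, 998 and 1386. The retained-intron share was 43.3%, 41.4% and 35.4%, lowest in replicate 3 as for Dusp1. The kallisto-type table gave 44.2%, 41.6% and 36.2% in the same order. As a share of TPM, which corrects for the short length of Dusp2-202 (756 nt against 1617 nt), the mean was 63.7% ± 3.73 (SD, n = 3).

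Dusp16 had an annotated retained-intron transcript (Dusp16-206) but almost no counts on it: 1.44 in replicate 1 and 0 in replicates 2 and 3, where the exact 95% binomial intervals of the share reach 1.77% and 1.41%. Its counts lay on the coding transcripts Dusp16-204 (54.6%, 51.7% and 49.8%) and Dusp16-201 (44.3%, 45.4% and 36.1%).

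Over 5990 genes with at least 50 counts and an annotated retained-intron transcript, the median share was 26.1%. Dusp1 stood above 99.2% of these genes, Dusp2 above 65.8% and Dusp16 above 1.39%, so 2 of 3 members lay over the median. The members' median was 40.0%. The other 6 members have no such transcript in the annotation, while 55.9% of all genes with at least 50 counts have one. For those 6 the tables cannot show a kept intron, and a share of 0 there is not a measurement. The counts of overlapping transcripts are estimates that divide shared reads, and a read in an intron outside these transcripts was not counted for the gene.

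**Figure D3:**
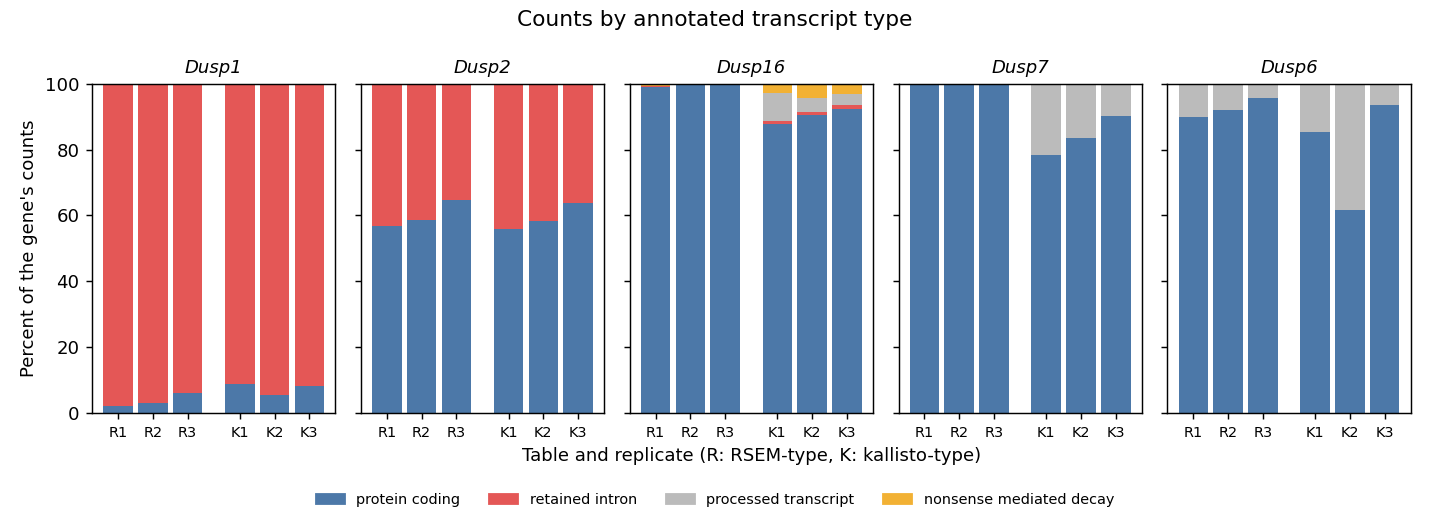
Percent of each gene's counts by annotated transcript type in replicates 1 to 3, from the RSEM-type table (R) and the kallisto-type table (K). Retained-intron transcripts take over 90% of the counts of Dusp1 in each bar and 35.4% to 44.2% of those of Dusp2, and processed transcripts of Dusp7 and Dusp16 hold counts only in the kallisto-type table.

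The other members differed in how stable their transcript makeup was. Dusp4 and Dusp5 have 1 annotated transcript each. Dusp8-201 held 99.0%, 100% and 100% of the counts of Dusp8, and Dusp10-201 held 100%, 99.7% and 100% of those of Dusp10. For Dusp6 the division between 2 nearly coterminal coding transcripts turned from library to library: Dusp6-201 held 10.6, 40 and 0 counts and Dusp6-204 held 4.70, 1.42 and 22 counts. At this depth the choice between these transcripts was not resolved.

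The level of Dusp7 depended most on the table. The RSEM-type table gave a mean of 3.87 ± 1.07 TPM and the kallisto-type one 19.4 ± 6.96 TPM (SD, n = 3), 5.01-fold more. The short processed transcript Dusp7-202 (270 nt) held 23.7, 34.7 and 14.5 counts in the kallisto-type table and 0 counts in the RSEM-type table. Dusp8 differed in the same direction, 1.96-fold, with 43.2, 83.4 and 36.9 kallisto-type counts on the short coding transcript Dusp8-202, which had 1.28, 0 and 0 RSEM-type counts. For Dusp1 and Dusp2 the kallisto-type means were 0.678 and 0.697 times the RSEM-type ones.

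The libraries differ in their labels by RNA amount, and edgeR's quasi-likelihood test was run over all genes on that amount. Of 14108 genes tested, 7.80% were called at a Benjamini-Hochberg adjusted p under 0.05, 4.71% higher and 3.09% lower with more RNA. None of the 9 members was called, all 9 being tested. With edgeR 4 of 9 members (Dusp2, Dusp5, Dusp6 and Dusp16) had an unadjusted p under 0.05, as did 23.2% of all genes tested. DESeq2, which gave an adjusted p for 6 members, also called 0, with 2 (Dusp2 and Dusp16) at an unadjusted p under 0.05. With 1 library per amount, 1 residual degree of freedom was left, and effects of amount and of any other feature of a library cannot be told apart.

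Dusp1 and Dusp4 were the steadiest members when libraries were scaled by total counts with TMM factors. In CPM, that is counts per library size without gene length, Dusp1 had 482, 469 and 451 in replicates 1, 2 and 3, a change of 0.02 log2 units per doubling of RNA (SE 0.13; edgeR adjusted p = 0.947). Its SD of log2(CPM + 1) was 0.05, at percentile 3.49 of the tested genes, whose median was 0.24. Dusp4 had 45.0, 48.2 and 45.9 CPM and the same SD of 0.05. In TPM, by contrast, Dusp1 was 1.30-fold higher in replicate 1 than in replicate 3. The share of counts on the ribosomal DNA locus genes was lowest in replicate 1 (8.46%), and its part in that difference was not tested.

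Dusp2 and Dusp16 were highest in replicate 1 and lowest in replicate 2, the libraries with the most and the least RNA. Dusp2 had 232, 135 and 213 CPM, a change of 0.39 log2 units per doubling (SE 0.14; edgeR adjusted p = 0.0679). Dusp16 had 21.1, 11.6 and 14.1 CPM, a change of 0.43 (SE 0.17; edgeR adjusted p = 0.105). Dusp5 went the other way, with 18.02, 31.4 and 29.0 CPM and a change of -0.40 (SE 0.16; edgeR adjusted p = 0.113). Dusp6 had 1.15, 2.53 and 1.25 CPM and a change of -0.60 (SE 0.27; edgeR adjusted p = 0.175). These 4 members did not pass the test, and the size of each change rested on single libraries. Between 2 libraries at a time, on the log2(CPM + 1) scale, the slope of Dusp2 ran from 0.12 without replicate 2 to 0.65 without replicate 1. That of Dusp5 ran from -0.66 without replicate 2 to -0.11 without replicate 1, and that of Dusp16 was 0.26 without replicate 1. That of Dusp6 was -0.07 without replicate 2, so none of these 4 changed sign. Of Dusp7, Dusp8 and Dusp10, the lowest edgeR adjusted p in this fit was 0.337, for Dusp10.

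**Figure D4:**
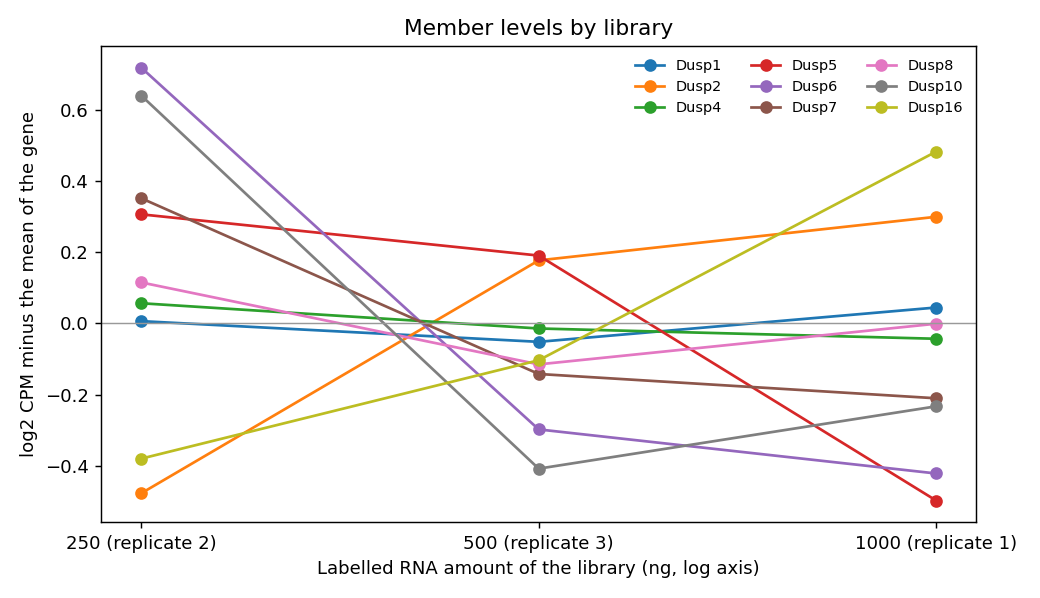
log2 CPM of each member minus its own mean over the libraries, against the labelled RNA amount on a log axis (250 ng in replicate 2, 500 ng in replicate 3, 1000 ng in replicate 1). Dusp1 and Dusp4 stay near 0, Dusp2 and Dusp16 are highest at 1000 ng, and Dusp5 and Dusp6 are lowest there.

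Among the listed dual-specificity phosphatase genes that were measured, 25 with the members, Dusp1 and Dusp2 held the top places. Of the 16 others, 9 reached 1 TPM and 4 reached 10 TPM, with a median of 1.34 TPM. The highest were Dusp11, which acts on RNA, at 89.8 ± 20.0 TPM, and Dusp3, a small phosphatase that can act on ERK and JNK, at 31.8 ± 6.98 TPM (SD, n = 3). These 2 genes lay around Dusp4 in the order. Dusp21 had no counts in any library. Of the 7 tested in this list, edgeR called 0 with RNA amount, 0 had an unadjusted p under 0.05, and DESeq2 called 0 of 5.

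**Figure D5:**
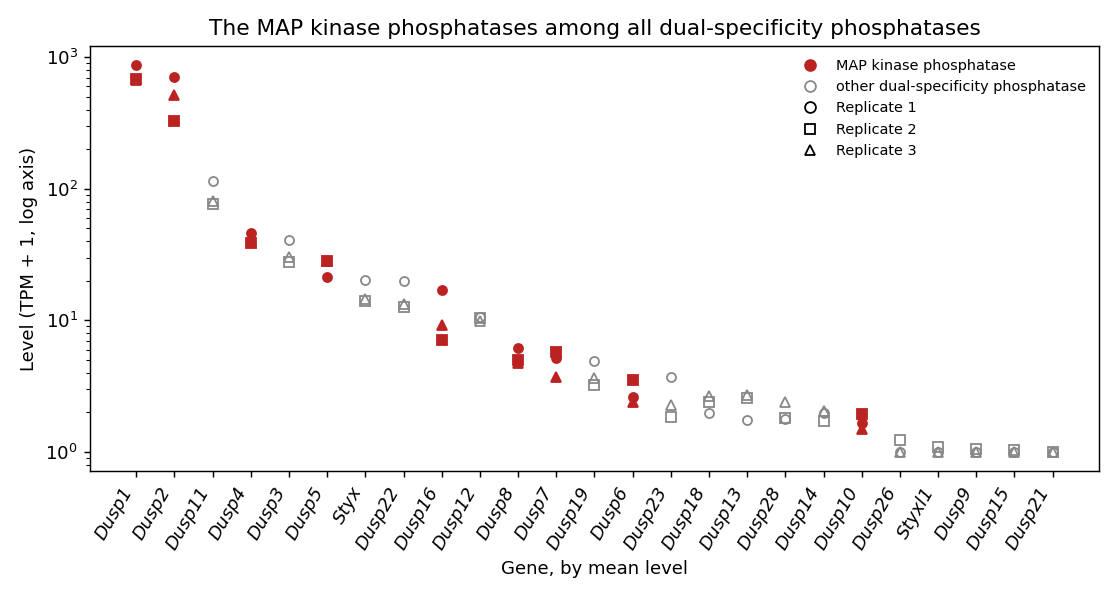
Level in TPM plus 1 on a log axis of the 25 listed dual-specificity phosphatase genes by mean level, with 1 symbol for each library. The 9 members are filled and the others open. Dusp9, a MAP kinase phosphatase that is not a member, is drawn open at place 23. Dusp1 and Dusp2 lie above all others, and the remaining members are spread from place 4 to place 20.

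Genes of the MAP kinase family were expressed in the same libraries. Of 14 MAP kinase genes, 9 reached 1 TPM, led by Mapk6, an atypical MAP kinase, at 231 ± 118 TPM and Mapk14, the main p38 kinase, at 97.0 ± 26.2 TPM (SD, n = 3), and Mapk4 had no RSEM-type counts. Dusp1 and Dusp2 lay above all of them in mean level. Of 10 tested, edgeR called 1 higher with more RNA (Mapk6, 0.42 log2 units per doubling, SE 0.13) and 2 lower (Mapk7, which encodes ERK5, -0.61, SE 0.16, and the p38 kinase gene Mapk11, -0.89, SE 0.28). DESeq2 called 0 of the 8 MAP kinase genes for which it gave an adjusted p.

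Upstream, all 7 MAP kinase kinase genes reached 1 TPM, and their median was 39.9 TPM. Map2k2, a kinase of ERK, at 88.3 ± 7.37 TPM and Map2k3, a kinase of p38, at 87.0 ± 16.3 TPM were highest without differing beyond their spread, and Map2k6 was lowest at 3.44 ± 1.51 TPM (SD, n = 3). In the kallisto-type table Map2k3 came first (133 against 86.9 TPM). Of these 7, edgeR called 0 with RNA amount, 1 had an unadjusted p under 0.05, and DESeq2 called 0 of 6. All 13 MAP kinase kinase kinase genes reached 10 TPM. Map3k8, the kinase that links TLR4 to ERK, was highest at 160 ± 94.8 TPM, and Map3k6 was lowest at 11.1 ± 1.57 TPM. In the kallisto-type table Map3k8 (118 TPM) stood below Map3k1 (155 TPM), a gene named after its values were seen. Map3k8 was the 1 gene of 13 called, higher by 0.53 log2 units per doubling (SE 0.13; edgeR adjusted p = 0.00832).

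Downstream, all 10 MAP kinase-activated kinase genes reached 1 TPM. Mknk1, a kinase that phosphorylates the translation factor eIF4E, was highest at 301 ± 39.2 TPM and Rps6ka5 lowest at 8.44 ± 5.36 TPM (SD, n = 3) in the RSEM-type table. In the kallisto-type table Mapkapk2 came first (629 against 299 TPM for Mknk1) and Rps6ka5 was at 17.2 TPM, next to lowest. Mapkapk2, a target of p38, had RSEM-type levels of 300, 68.3 and 82.9 TPM, and was the 1 gene of 10 called, higher by 0.78 log2 units per doubling (SE 0.14; edgeR adjusted p = 0.000161). Other inhibitors of the pathway were low. Of 7 Sprouty and Spred genes, 4 reached 1 TPM, led by Spred1 at 20.3 ± 9.20 TPM and Spred3 at 8.37 ± 0.735 TPM, while Spry4 had 1 RSEM-type count in all. Spry2 was the 1 gene of 4 called, lower by a log2 change of -0.94 (SE 0.30). Of 8 other phosphatases of MAP kinases, 6 reached 1 TPM. Ppp2ca, the catalytic subunit of protein phosphatase 2A, was highest at 67.1 ± 12.9 TPM, Ppm1b followed at 41.5 ± 6.70 TPM, and Ptprr had no RSEM-type counts. The kallisto-type table gave Ptprr a mean of 14.4 TPM, so whether it was detected depended on the table. Of 6 tested, Ptpn7, a tyrosine phosphatase of ERK and p38, was called lower at -0.53 (SE 0.17). DESeq2 called 0 of the 2 Sprouty and Spred genes and 0 of the 5 phosphatases for which it gave an adjusted p.

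The genes most like Dusp1 in level and in variation were Anxa3, Ewsr1 and Lyst, out of 6878 protein-coding genes of at least 10 TPM. Their root mean square differences from Dusp1 over the 3 libraries were 0.0602, 0.0776 and 0.103 on the log2(TPM + 1) scale. Anxa3 had 876, 726 and 664 TPM beside the 867, 676 and 669 TPM of Dusp1. For Dusp6, the lowest member over 1 TPM, they were Prdx3, Hist1h2ab and Plekhh3, out of 11059 genes of at least 1 TPM. With 3 libraries many genes come close to any pattern: without replicate 1 only 1 of the 3 genes nearest Dusp1 remained, and for Dusp6 none remained without any single replicate.

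Promoter sequences, credited to RefSeq on GRCm38.p6, were found for 8 members: all but Dusp4. The 250 bases before each start were searched on both strands for fixed motifs. The full cAMP response element, TGACGTCA, was present in 2 of 8, Dusp1 and Dusp8, against 1.55% of 32851 promoters of the same length. Its shorter core, TGACG, which also lies inside the full element, was present in 4 of 8 (Dusp1, Dusp5, Dusp8 and Dusp16), against 17.8%. The CArG box, the site of serum response factor, was present in 1 of 8, Dusp5, against 1.47%, and there in 2 copies. The GC box, GGGCGG, was present in 6 of 8 against 32.7%, and the E box, CACGTG, in 2 of 8 (Dusp1 and Dusp2) against 6.02%. The members' promoters had GC contents from 56.4% in Dusp6 to 77.2% in Dusp7, above the median of 52.4% of all promoters.

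No match was found in these 8 windows for the AP-1 site TGANTCA (6.75% of all promoters), the NF-kB site by its consensus (7.25%), the ETS motif CCGGAA (12.0%), the EGR site GCGTGGGCG (0.536%) or the TATA box TATAAA (12.4%). A match is a run of letters and not a shown binding site. The promoters of Dusp1, Dusp5 and Dusp8, which carry the response element or the CArG boxes, and of Dusp2, which carries neither and stands next to Dusp1 in level, are printed from base 250 to base 51 before the start. Capitals mark the full cAMP response elements and their shorter cores and, in Dusp5, the CArG boxes.
Dusp1, chr17:26508523-26508722, minus strand: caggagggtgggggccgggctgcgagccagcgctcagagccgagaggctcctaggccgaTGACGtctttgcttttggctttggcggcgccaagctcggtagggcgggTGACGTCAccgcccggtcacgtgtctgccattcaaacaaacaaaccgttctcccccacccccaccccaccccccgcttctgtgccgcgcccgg
Dusp2, chr2:127335909-127336108, plus strand: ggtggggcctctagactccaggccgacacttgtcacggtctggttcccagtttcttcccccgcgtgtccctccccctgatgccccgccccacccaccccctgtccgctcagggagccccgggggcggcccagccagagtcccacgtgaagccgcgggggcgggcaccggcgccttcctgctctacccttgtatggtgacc
Dusp5, chr19:53528895-53529094, plus strand: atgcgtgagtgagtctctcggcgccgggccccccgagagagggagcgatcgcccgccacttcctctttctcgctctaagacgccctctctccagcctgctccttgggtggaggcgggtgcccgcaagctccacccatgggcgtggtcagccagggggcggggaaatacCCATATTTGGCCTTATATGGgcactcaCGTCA
Dusp8, chr7:142095335-142095534, minus strand: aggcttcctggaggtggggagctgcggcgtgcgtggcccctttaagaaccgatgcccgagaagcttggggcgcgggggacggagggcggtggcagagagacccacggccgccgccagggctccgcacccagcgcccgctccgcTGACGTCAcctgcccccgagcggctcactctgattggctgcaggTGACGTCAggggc
Dusp8 carries the full element in 2 copies, at bases 107 to 100 and 63 to 56 before its start, and Dusp1 in 1 copy at bases 143 to 136. The mean levels were 4.28 ± 0.748 TPM for Dusp8 and 737 ± 112 TPM for Dusp1 (SD, n = 3). Whether any motif relates to level was not tested.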

How the data were processed

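Total RNA of the chromatin fraction was measured in 3 libraries of 1 group. Per the file headers, the authors' gene and transcript tables of each library give expected counts and TPM under RSEM's column names. A further deposited table gives estimated counts and TPM of transcripts under kallisto's names. The readme files deposited by the authors name mm10 and annotation M21. For the authors' tool versions, aligner and strand setting, nothing is stated in these sources. The members and gene lists were chosen with earlier results of these data known.

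Levels were recomputed from expected counts and effective length, as TPM over 46615 genes no shorter than 300 nt, and other entries held 61.7% to 67.1% of the deposited TPM. edgeR 4.0.16 (R 4.3.3; counts rounded, filterByExpr with 1 group, TMM factors of 1.12, 0.931 and 0.963 in replicates 1, 2 and 3, quasi-likelihood F test, Benjamini-Hochberg adjustment) fitted log2 RNA amount over all genes and was tested on simulated data. The SE came from the F statistic. Retained-intron shares used transcript counts. A gene with 0 counts may hold up to 0.222, 0.156 and 0.156 CPM, counting error only. Alternatives were RLE factors, DESeq2 1.42.0, no filter, kallisto-type counts, other length settings, other count minimums, shares of TPM, a pseudocount of 0.1 in place of 1 and leaving out replicates; a length limit and a design-based filter in the edgeR fit were chosen after seeing the data. The genes named were all members, Dusp9, the 2 highest and the lowest gene of each list, genes of a list with 5 or fewer calls, and the 3 genes most like the highest member and the lowest member over 1 TPM. The rule's floor of 10 TPM for like genes was lowered to 1 TPM for Dusp6, which lies below it. Some genes that this rule names are not reported here. Tables were handled in Python 3.11.15 (scipy 1.17.1, pandas 2.3.3, numpy 2.4.6).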

Additional observations from a re-analysis of the deposited data

How the results depend on the processing

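No member was called with RNA amount under any of 7 alternatives (lowest adjusted p 0.0643, for Dusp2 with RLE size factors), and the 5 other orders tried kept 6 to 9 of 9 members in place. The share of the family's TPM on Dusp1 ran from 52.4% to 57.5% without each replicate in turn, and 2 of 3 members stayed above the median retained-intron share under 7 alternatives. The direction of Dusp1 with RNA amount, 0.019 log2 units per doubling, turned to -0.000826 with kallisto-type counts (edgeR adjusted p = 0.997; range over 7 alternatives 0.912 to 0.997); the cause was not tested. It was also -0.06 without replicate 1 and 0.10 without replicate 2. The genes called over the whole table numbered 1101 in edgeR, 661 with the count filter set by the design, 503 with kallisto-type counts and 378 with DESeq2. Without replicate 2 the slopes of Dusp8 and Dusp10 turned to 0.10 and 0.07 from -0.06 and -0.48 with all libraries, and that of Dusp7 was -0.05 against -0.29. Slopes of 2 libraries leave no residual degree of freedom, give no test, and were taken on the log2(CPM + 1) scale, which understates changes of low genes. Levels as deposited were lower for all 9 members, 266 TPM for Dusp1, since that scale also holds the entries left out of the recomputed TPM. Depth limits Dusp6 and Dusp10, at 10 to 45 counts a library.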
